A study of Danio rerio with 18 samples.

Results

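The znf genes of the zebrafish were followed through the first hours of development by sequencing the RNA on polysomes. Members were all genes whose symbol begins with znf and a digit, in upper or lower case, which gave 262 of the 27015 genes in the deposited table. They were sorted by their unfractionated RNA. A total of 160 genes had a mean of at least 100 normalized counts over the 4 early stages and were called maternal. Another 17 had an early mean under 10 and at least 50 at 3.5 or 5.3 hours post-fertilization (hpf), and were called newly expressed. The remaining 85 fell in neither class. RNA came from pooled whole embryos of the wild-type AB strain. The stages were the egg, embryos of 1, 16 and 128 cells, and embryos at 3.5 and at 5.3 hpf. At each of these 6 stages there was 1 polysome-bound, 1 polysome-unbound and 1 unfractionated library, 18 in all, depleted of ribosomal RNA and with no agent or mutation in any group. Since each condition had 1 library, the tests measured an effect against the spread between stages, not between repeated samples.

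Zinc fingers are small protein folds held by a zinc ion, and a protein with several fingers in a row can read a stretch of DNA or RNA. In vertebrates the largest class forms tandem gene clusters that differ between species, and many of its proteins are thought to bind and silence transposons. Other znf proteins are old and shared across vertebrates, among them activators of transcription, RNA-binding proteins and factors of ribosome assembly. Before the embryo transcribes its own genome, its proteins are made from RNA laid down in the egg. An mRNA carrying several ribosomes sediments with polysomes, so the ratio of bound to unbound RNA is used as a measure of translation. Main transcription in the zebrafish starts between the 128-cell stage and 3.5 hpf.

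The symbols fell into a pair of number ranges, split here at 970 after the values had been seen. Numbers below 970 are mostly those of human ZNF genes, and the higher ones are zebrafish numbers. Of the 156 genes numbered 970 and above, 67 (42.9%) were maternal, 17 (10.9%) were newly expressed and 72 (46.2%) were neither. Of the 106 genes below 970, 93 (87.7%) were maternal, 0 were newly expressed and 13 (12.3%) were neither. All 17 newly expressed genes carried numbers of 970 and above. Because the split was set with the values known and a gene of this class lies close above it, this is a description. Over the whole table, 14596 genes (54.0%) were maternal and 1319 (4.88%) newly expressed.

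Of the 85 genes in neither class, 80 had an early mean between 10 and 100, and 79 of these reached at least 50 at 3.5 or 5.3 hpf. In the test of late against early totals, 45 of the 80 rose, and 47 of all 85 (55.3%). Of 8102 genes in neither class tested over the whole table, 36.6% rose and 0.75% fell. The class rests on the same early totals as this test. znf1063 had the highest late level among the 80 znf genes, with 62.9, 48, 18.7, 47.3, 17204 and 9987 normalized counts from the egg to 5.3 hpf. The limits of the classes cut through a continuous range. At the early mean of 100, znf1037 and ZNF341 lay just above at 102.9 and 103.1, and znf1186 and znf1148 just below at 96.2 and 95.5. At the early mean of 10, znf1126 and znf1050 lay just above at 10.05 and 10.65, and znf1019 and znf1104 just below at 9.47 and 9.41. At the late level of 50, znf1019 and znf1104 were the lowest members inside at 75.7 and 86.2. Just outside it were znf1150 at 36.8 and znf1072 at 30.8.

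Estimated reads, summed over the transcript entries of each library, lay between 30671815 and 71646639. Summed levels of 10 maternal marker genes were 158017 to 193927 in the early unfractionated libraries, 85153 at 3.5 hpf and 32296 at 5.3 hpf. Sums of 11 genes on a list of zygotic markers were 935 to 1157, 34255 and 127942 at the same stages. Genes with similar sequences are harder to count, and how similar the znf genes are was not examined. In 120 of the 262 genes (45.8%) the value was a whole number of reads in all 18 libraries, within 0.001 reads, against 50.7% of all genes. The other 142 had values in fractions of a read in at least 1 library, as estimates that divide reads between similar sequences give, and their levels are less certain. Symbols were also shared, with 9 of the 253 standing for a pair of genes each, and these are given with their Ensembl identifier.

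Newly expressed znf genes had early means under 10 and, in the 8 most abundant, late levels above 400 normalized counts. These levels chose the class and are given as a description. znf1043 had 0, 0, 0, 4.38, 6219 and 744 normalized counts in unfractionated RNA from the egg to 5.3 hpf. znf1125 had 1.66, 2.55, 1.58, 27.4, 4139 and 3458 over the same stages, and znf1044 had 0, 14, 0, 14.2, 3123 and 1994. All of these peaked at 3.5 hpf, and znf1125 was already higher at the 128-cell stage than in the stages before it. znf1145 had 4.98, 0, 11.1, 6.57, 2481 and 1105 normalized counts, and znf1127 had 0, 0, 0, 3.28, 1910.0 and 715. A later maximum was seen for znf1061, with 6.06, 3.88, 3.84, 2.88, 759 and 2592, and for znf1048, with 13.6, 15.7, 0, 3.18, 807 and 1547. znf1077 was nearly level between the late stages, at 414 at 5.3 hpf and 444 at 3.5 hpf.

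The remaining 9 newly expressed genes stayed under 400 normalized counts, with late maxima from 75.7 in znf1019 to 356 in znf1106. znf975 and znf1106 appeared late, with 232 and 356 at 5.3 hpf and 8.1 and 22.4 at 3.5 hpf. In 8 of the 17 genes the level was lower at 5.3 hpf than at 3.5 hpf. Among all 1319 newly expressed genes of the table this was so for 307 (23.3%). With 1 library at each stage, the difference between these shares was not tested.

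**Figure D1:**
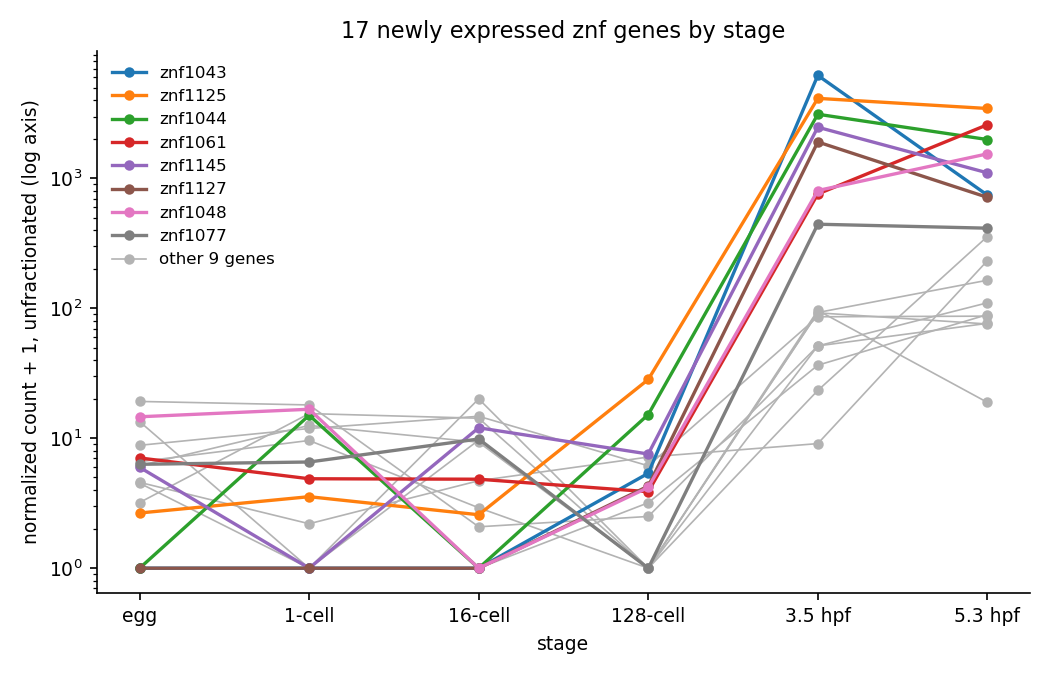
Unfractionated normalized counts plus 1 (log axis) of the 17 newly expressed znf genes at the 6 stages, 1 library per point. The 8 genes with the highest late level are coloured, and znf1043 falls to 744 at 5.3 hpf after 6219 at 3.5 hpf, while znf1061 reaches 2592 at 5.3 hpf.

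Genes with high numbers supplied most of the rises among the znf genes at the late stages. The 2 late unfractionated libraries were set against the 4 early ones with limma on log2 of the normalized count plus 1. Of 261 znf genes that reached 10 normalized counts in 2 or more libraries, 83 rose and 25 fell (adjusted p under 0.05). Over all 23949 genes tested, 22.5% rose and 13% fell. The median log2 difference was 0.56 for znf genes and 0.23 for all genes. Of 155 genes numbered 970 and above, 67 rose and 6 fell, with a median of 1.70. Of 106 genes with lower numbers, 16 rose and 19 fell, with a median of −0.04. The ranges differ in class make-up, and the classes rest on the same early totals as this test. Within the maternal class 10 of 67 genes numbered 970 and above rose (14.9%) and 6 fell. Of the 93 maternal genes with lower numbers 12 rose (12.9%) and 19 fell. Centring each library on the median gene put the median of all genes at −0.28, and 61 znf genes rose and 53 fell. Of all 23949 genes 4067 then rose and 6589 fell. Without the 5.3 hpf library, which leaves 1 late library, the median was 0.31 for znf genes and 0.06 for all genes. Without the 3.5 hpf library the medians were 0.97 and 0.20. Without any 1 early library 62 to 77 znf genes rose and 11 to 16 fell. Among all genes 4173 to 4992 then rose and 1662 to 1975 fell. In whole embryos, a change in the number of cells that hold an RNA and in its amount per cell cannot be told apart. Markers of other tissues are given beside this. The 4 blood markers summed to 307 at 5.3 hpf, 310 at 3.5 hpf and 25.4 to 47.4 early, with both globin genes under 10. Follicle markers summed to 355 at 5.3 hpf, 411 at 3.5 hpf and 163 to 222 early, and muscle markers to 699, 1358 and 491 to 800. The part of such cells in the znf changes was not tested.

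**Figure D2:**
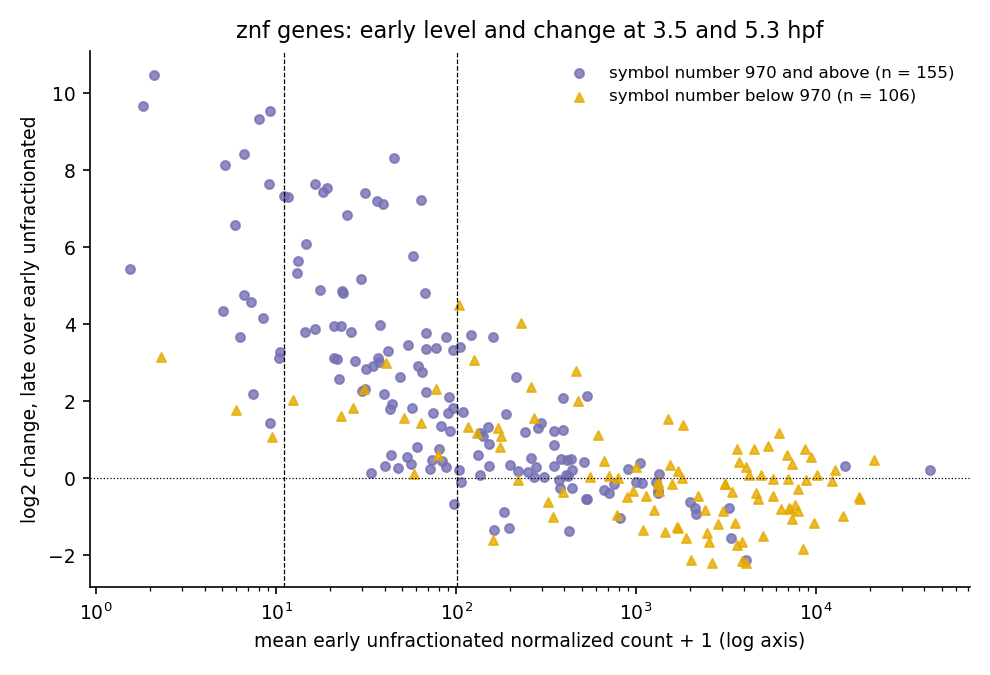
Each point is a znf gene, placed by its mean early unfractionated normalized count plus 1 (log axis) and its fitted log2 change at 3.5 and 5.3 hpf over the 4 early stages. Dashed lines mark early means of 10 and 100. Genes numbered 970 and above (circles, n = 155) have a median change of 1.70 and genes below 970 (triangles, n = 106) a median of −0.04.

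Some znf genes with a maternal supply rose as well. Of 160 maternal znf genes 22 rose (13.75%), against 1268 of all 14596 maternal genes (8.69%). The 22 were led by ZNF341, which lay just above the class limit with an early mean of 103.1. It had 1783 and 2995 normalized counts late, against 88, 142, 102 and 81 early (log2 difference 4.51 ± 0.39 SE, adjusted p = 0.00049). In humans this protein activates the gene for the signalling factor STAT3. The ZNF644 gene, whose human protein binds histone methyltransferases that silence chromatin, had 3908 and 3383 late, against 149, 219, 290.5 and 251 early (log2 difference 4.04 ± 0.35 SE, adjusted p = 0.000474). In both, the late and early ranges lay far apart. znf644a, which shares its number, fell, with a log2 difference of −0.78 ± 0.25 (SE), adjusted p = 0.0444. znf1059 and znf1136 rose by 3.73 and 3.66 on the log2 scale.

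The 25 genes that fell were in the maternal class, as were 3059 of the 3120 falling genes of the whole table, and the class rests on the same early totals. ZNF592 had 1202 and 623 normalized counts late, against 3846, 5567, 3171 and 3732 early (log2 difference −2.20 ± 0.34 SE, adjusted p = 0.00352). znf687a had 1424 and 526 late, against 4170.4, 4116, 3618 and 3594 early (log2 difference −2.16 ± 0.38 SE, adjusted p = 0.00555). The human products of both belong to a zinc finger complex at active promoters and enhancers. ZNF277 fell by 2.19 and znf1028 by 2.13 on the log2 scale, and ZNF438 by 2.12. One of the pair of ZNF143 genes, ENSDARG00000041581.8, also fell, with a log2 difference of −1.85 ± 0.29 (SE), adjusted p = 0.00359. ZNF143 activates small nuclear RNA genes and many promoters in vertebrates. In the other, ENSDARG00000012887.8, the difference was −0.14 ± 0.19 (SE), adjusted p = 0.587.

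Over the 6 stages together, znf RNAs were on average under-represented on polysomes. Bound and unbound libraries were compared over the 6 stages with the stage as a block. Of 261 znf genes tested, 34 were lower and 7 higher in the bound fraction (adjusted p under 0.05). Over all 24893 genes tested, 7.1% were lower and 8.46% higher. The median log2 of bound over unbound was −0.46 for znf genes and −0.01 for all genes. Taken by stage, the znf median lay below that of all genes tested from the egg to 3.5 hpf. At 5.3 hpf it lay above, at −0.18 against −0.36, with 37.9% of znf genes and 35.0% of all genes higher in bound RNA. The deposited scaling sets the zero of this ratio. Scaling to library totals moved the median of all genes to −0.54, scaling to the control entries in the libraries moved it to −1.35, and centring on the median gene moved it to 0.24. Relative to all genes, the znf median of the fit over stages stayed between −0.54 and −0.34 under every setting tried. Scaling by 1 factor per library shifts all genes nearly alike, and the stage block leaves the ratio itself unchanged. Those settings could therefore hardly move this difference. There were more lower than higher znf genes under each setting, down to 17 lower and 15 higher with median centring. Among all genes, 949 were lower and 3268 higher with median centring, and 12588 lower and 161 higher with control entries. Leaving out any 1 of the 4 early stages lowered the count of lower genes to between 16 and 19, and leaving out 5.3 hpf raised it to 50.

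This held in the maternal class and for genes with whole reads. Of 160 maternal znf genes, 31 were lower and 6 higher on polysomes, with a median of −0.48. Of all 14596 maternal genes 1641 were lower and 1985 higher, with a median of −0.05. Among 67 maternal znf genes with whole reads in all 18 libraries, 12 were lower and 1 higher, with a median of −0.53. By number, the 67 maternal genes at 970 and above had 19 lower and 0 higher at a median of −0.68, and the 93 below 970 had 12 lower and 6 higher at −0.20. A total of 47 of the 160 maternal znf genes (29.4%) had no stage with more bound than unbound RNA, against 2221 of all maternal genes (15.2%).

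Lowest on polysomes among the called genes was ZNF366, a nuclear receptor corepressor of dendritic cells in mammals. Its normalized counts ranged from 8.72 to 60.5 with a median of 11.1 in bound RNA, against 20.1 to 188 with a median of 87.2 in unbound RNA (log2 ratio −2.22 ± 0.49 SE, adjusted p = 0.0114). The bound level was the lower one at each stage. ZNF503, a repressor needed in limb and brain development of vertebrates, ranged from 191 to 977 (median 545) in bound RNA, against 479 to 2161 (median 1543) in unbound RNA (log2 ratio −1.59 ± 0.29 SE, adjusted p = 0.00507). znf106b ranged from 568 to 1701 (median 952) in bound RNA, against 1376 to 6463 (median 2803) in unbound RNA (log2 ratio −1.52 ± 0.38 SE, adjusted p = 0.0196), and at the 128-cell stage it was slightly higher in the bound library. znf1060 and znf1010 had log2 ratios of −1.87 and −1.53. Of the 34 lower genes, 31 were lower in all 6 stages and 3 in 5. The calls rest on these same stages, so this count is a description.

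The 7 genes higher on polysomes included 3 of the 6 on a list of RNA-binding or RNA-processing genes. That list was chosen with earlier results of these data known, so this is a description. znf638, whose human protein binds cytidine-rich nucleic acid and silences unintegrated viral DNA, ranged from 15278 to 25472 (median 18167) in bound RNA, against 3352 to 14028 (median 4679) in unbound RNA (log2 ratio 1.80 ± 0.27 SE, adjusted p = 0.00193). The bound range lay wholly above the unbound one. ZNF207 (ENSDARG00000015538.9), a spindle and splicing protein in human cells, ranged from 4814 to 14464 (median 11822) in bound RNA, against 1690.2 to 4945 (median 2317) in unbound RNA (log2 ratio 1.87 ± 0.40 SE, adjusted p = 0.00996). Here the ranges met at the late stages. znf574, ZNF706, znf318 and znf185 had log2 ratios of 1.51, 1.48, 1.18 and 0.79. With scaling to the control entries, which moved the median of all genes to −1.35, none of the 7 was called. The ratios of ZNF706 and znf318 were then below 0. That of znf185, the lowest of the 7 as reported, was not followed under this scaling. The seventh was the newly expressed znf1044, described with its class.

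**Figure D3:**
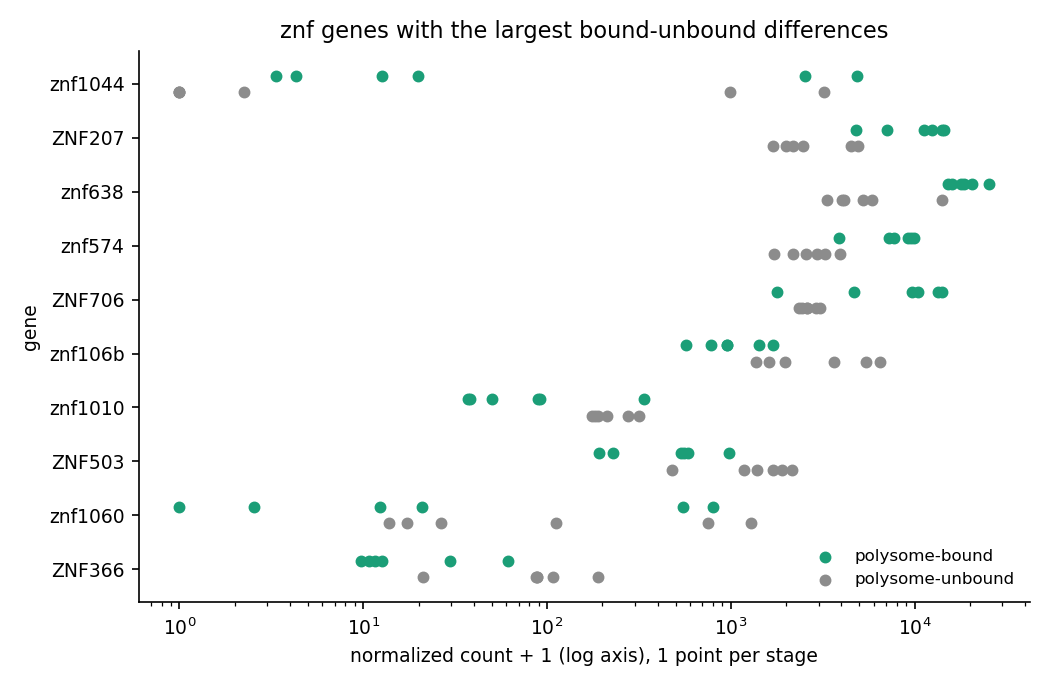
Normalized counts plus 1 (log axis) in the 6 polysome-bound (green, upper row of each gene) and 6 unbound (grey, lower row) libraries, 1 point per stage. Shown are the 5 highest and the 5 lowest on polysomes among the znf genes called in the comparison of fractions. For znf638 the bound points lie wholly to the right of the unbound ones, and for ZNF366 the median is 11.1 bound and 87.2 unbound.

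Stage by stage, the median of the maternal znf genes lay below that of all maternal genes, with the widest gaps at the 4 early stages. Their median log2 ratios were −0.59, −0.52, −0.63, −0.53, −0.41 and −0.29 from the egg to 5.3 hpf. For all maternal genes the medians were −0.02, −0.01, 0.05, 0.05, −0.13 and −0.21. The gap was thus 0.07 log2 units at 5.3 hpf and 0.56 in the egg, a difference that was not tested. The 67 maternal genes numbered 970 and above ran at −0.97, −0.77, −1.02, −0.82, −0.80 and −0.21. The 93 with lower numbers ran at −0.18, −0.29, −0.18, 0.09, −0.28 and −0.42. At 5.3 hpf the genes with higher numbers were therefore no longer the lower of the pair. The sign of the maternal median at 5.3 hpf turned with the scaling, to 0.02 with TMM factors and 0.17 with median centring.

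**Figure D4:**
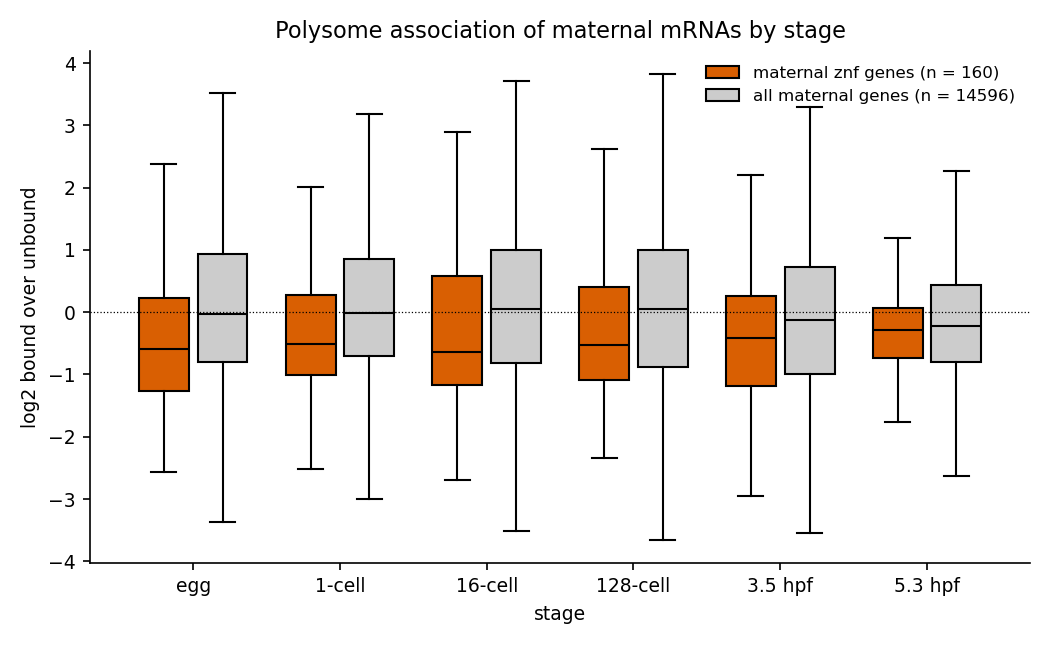
Log2 of bound over unbound normalized counts at each stage for the 160 maternal znf genes (orange, left) and all 14596 maternal genes (grey, right). Lines in the boxes are medians, boxes span the quartiles, whiskers reach the farthest gene within 1.5 box lengths and farther genes are not drawn. The znf medians lie between −0.63 and −0.29 and the medians of all maternal genes between −0.21 and 0.05.

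Newly expressed znf RNAs had a higher median polysome ratio at 5.3 hpf than at 3.5 hpf, when most of them first appeared. The median log2 ratio of the 17 genes was −0.06 at 5.3 hpf and −0.78 at 3.5 hpf, and that of all newly expressed genes −0.40 and −0.25. At 5.3 hpf 7 of the 17 (41.2%) had more bound than unbound RNA, and 1 had a ratio below −1. At 3.5 hpf 6 (35.3%) had more bound RNA, and 7 had a ratio below −1. Among all 1315 newly expressed genes with enough reads, 32.4% had more bound than unbound RNA at 5.3 hpf and 43.6% at 3.5 hpf. The ratio was higher at 5.3 hpf than at 3.5 hpf in 12 of the 17 znf genes, and in 636 (48.4%) of all. Under TMM factors, median centring and control entries the znf median at 5.3 hpf was above 0, at 0.25, 0.40 and 0.14.

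Genes of this class did not move alike. znf1044 had 2520.2 bound against 987 unbound normalized counts at 5.3 hpf and 4835 against 3199.6 at 3.5 hpf. It was the single member of the class called in the comparison of fractions (log2 ratio 2.10 ± 0.56 SE, adjusted p = 0.0276), which also counts the early stages, where all its fractions held under 20 normalized counts. With a pseudocount of 10 the log2 ratio was 0.86 and the call was lost, as it was without the egg, the 16-cell or the 128-cell libraries, with scaling to the control entries and without the stage block. znf1048 had 2324 bound against 988 unbound at 5.3 hpf. Both had more bound than unbound RNA at each late stage. The most abundant gene at 3.5 hpf, znf1043, had 585 bound against 1207 unbound at 5.3 hpf and 3606 against 5003 at 3.5 hpf. znf1125 had less bound RNA at both stages, with 2556 against 3996 and 1987 against 3422. The lowest ratios belonged to weakly expressed genes such as znf1019, with 2.3 bound against 39.6 unbound at 3.5 hpf.

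**Figure D5:**
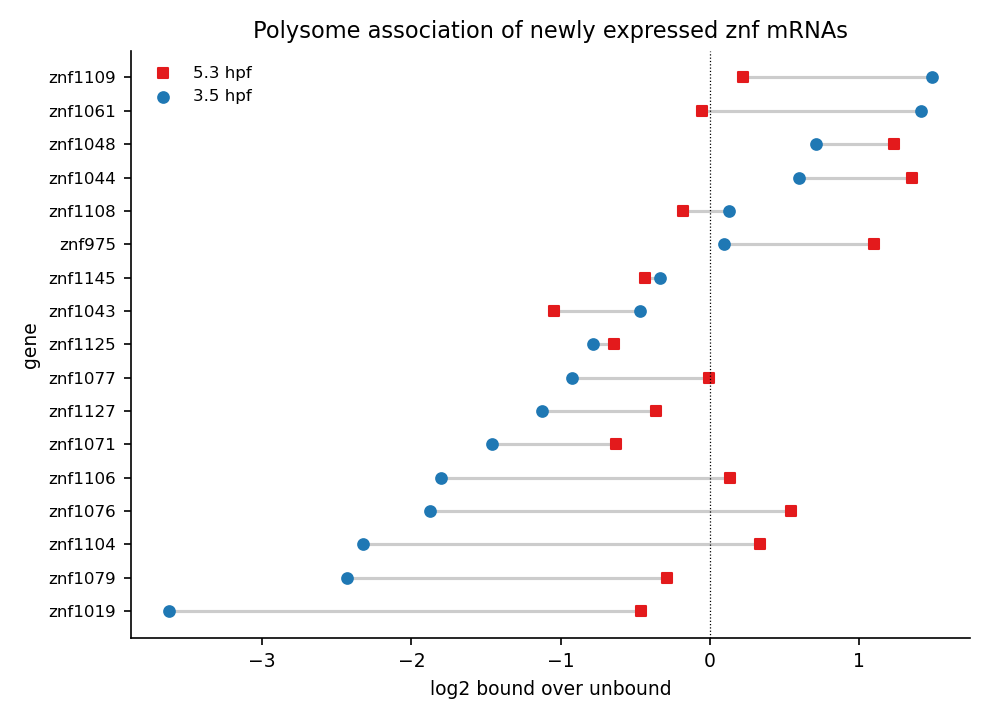
Log2 of bound over unbound normalized counts of the 17 newly expressed znf genes at 5.3 hpf (squares) and 3.5 hpf (circles), 1 library pair per point, ordered by the 3.5 hpf value. In 12 genes the square lies to the right of the circle, and znf1019 has the lowest value, −3.62 at 3.5 hpf.

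A few maternal znf RNAs changed their place on polysomes at the late stages. The change of the bound over unbound ratio, late minus early, was called in 7 of 261 znf genes, 6 with a fall and 1 with a rise. Over all genes 5.39% fell and 2.36% rose. The median change was −0.01 for znf genes and −0.51 for all genes. Without the 3.5 hpf libraries no gene of the table was called by limma, and 34 of 261 znf genes and 4289 of all 24476 genes had an unadjusted p under 0.05. With the control entries 0 znf genes were called. With edgeR on the 119 genes that match 1 transcript, 2 rose and 0 fell. Of the 7 genes only ZNF217 was among these 119, so the others could not be called there. Without the 16-cell or the 5.3 hpf libraries 0 rose and 3 fell, and leaving out any stage but the 128-cell one ended the single rise, that of ZNF330. Scaling moved the median change of all genes between −0.51 and 0.50, and the znf median stayed 0.27 to 0.75 above it in every setting. Scaling by 1 factor per library shifts all genes nearly alike, so it could hardly move this gap.

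ZNF367 changed most. Its log2 ratios were −1.32 and −1.26 at 3.5 and 5.3 hpf, against 1.44, 1.59, 1.03 and 1.28 at the early stages (change −2.63 ± 0.34 SE, adjusted p = 0.00625). Bound RNA fell to 543 and 621 normalized counts late, against 2549.6, 1678, 4087 and 4150.3 early, while the unfractionated level overlapped between early and late. znf346, which binds double-stranded RNA in mammals, had ratios of −1.11 and −0.34 late, against 1.89, 1.38, 1.83 and 1.35 early (change −2.34 ± 0.40 SE, adjusted p = 0.0104). Unfractionated znf346 RNA was at 11658 and 16106 late, against 9948, 8928, 10249 and 8434 early, so it was not lower when its bound share fell. The ZNF207 gene ENSDARG00000015538.9 had ratios of −0.04 and 0.66 late, against 3.05, 2.50, 2.56 and 2.49 early (change −2.34 ± 0.37 SE, adjusted p = 0.00889).

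ZNF706, a very small zinc finger protein, had 4689 and 1789.6 bound normalized counts late, against 13464, 9734, 14049.8 and 10426 early (change of the log2 ratio −2.17 ± 0.39 SE, adjusted p = 0.0128). Its unbound counts lay between 2335 and 3071 at all 6 stages. ZNF217, a transcriptional corepressor in human cells, had log2 ratios of −0.40 and −0.42 late, against 1.35, 0.92, 1.15 and 0.62 early (change −1.42 ± 0.36 SE, adjusted p = 0.0444). The one rise was that of ZNF330, a nucleolar protein in human cells, with ratios of 1.30 and 1.19 late, against −0.73, −0.65, −0.24 and 0.14 early (change 1.62 ± 0.37 SE, adjusted p = 0.0288).

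Before genome activation, polysome association moved in a small group of znf genes. A slope of the log2 ratio per stage step, from the egg to the 128-cell stage, was rising in 15 and falling in 6 of 246 znf genes tested. These are 6.10% and 2.44%, against 4.05% rising and 4.7% falling over all genes tested. Calls were made in 20 of 105 tested genes numbered below 970, and in 1 of 141 numbered 970 and above. All were in the maternal class, where 15 (9.38%) rose and 6 (3.75%) fell of 160. Of all 14596 maternal genes 6.14% rose and 7.13% fell. Among maternal znf genes, 14 rose and 6 fell of 93 numbered below 970, and 1 rose and 0 fell of 67 numbered 970 and above. This fit had 2 residual degrees of freedom, and without the 128-cell libraries 1 znf gene rose and 1 fell. Without the 1-cell libraries 25 rose and 11 fell, and without the egg or the 16-cell libraries 9 rose. Scaling to the control entries likewise left 1 and 1.

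The steepest called rise was in one of a pair of genes that share a symbol and moved in opposite directions. ZNF395 ENSDARG00000060113.6 had 8251, 6955, 25773 and 28705 bound normalized counts from the egg to the 128-cell stage. Its unbound counts were 14323, 12057, 7155 and 4661 (slope 1.29 ± 0.19 SE, adjusted p = 0.00267). Bound counts were thus higher and unbound counts lower at the 16-cell and 128-cell stages than in the egg and at the 1-cell stage. Its unfractionated level stayed between 7418 and 9918. The step from the 1-cell to the 16-cell stage, with 1 library per fraction, was not tested by itself. ZNF395 ENSDARG00000024195.10 had 1716, 1982, 1176 and 835 bound (slope −0.53 ± 0.14 SE, adjusted p = 0.041), and also changed by −1.85 ± 0.48 (SE), adjusted p = 0.0474 late minus early. Its bound RNA was lower at the 16-cell and 128-cell stages than in the egg.

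The ZNF281 genes, for a regulator of stem cell states in mammals, split in the same way, and both had whole reads in all 18 libraries. ENSDARG00000035910.6 had log2 ratios of −0.36, −0.26, 0.68 and 1.03 over the early stages (slope 0.51 ± 0.13 SE, adjusted p = 0.0358), and ENSDARG00000000567.9 had −0.33, −0.20, −1.83 and −2.34 (slope −0.76 ± 0.17 SE, adjusted p = 0.0195). The falling gene rose in unfractionated RNA to 2568 and 7179 late, against 1424, 1525, 1294 and 1757 early (log2 difference 1.53 ± 0.40 SE, adjusted p = 0.0227). Its late ratios returned to −0.15 and −0.21. In both pairs the slopes of the genes were called in opposite directions. The difference between the slopes was not tested.

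Other rising genes were znf280d, with a slope of 0.83 ± 0.14 (SE), adjusted p = 0.00595, znf740b at 0.82, znf668 at 0.71 and ZNF326 at 0.67. ZNF326 takes part in coupling transcription to splicing in human cells. The steepest called fall was that of znf451, a SUMO ligase in human cells. It had log2 ratios of 1.67, 1.29, −0.58 and −1.76 over the early stages (slope −1.22 ± 0.14 SE, adjusted p = 0.00177), and its late ratios were −1.43 and −1.13. znf423 (ENSDARG00000059707.7), a partner of SMAD and EBF proteins in mammals, had a slope of −0.84, and ZNF507 of −0.82.

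Lists of conserved znf genes by known role held few calls each. The lists were chosen with earlier results of these data known, so their counts are a description. Over all genes 8.46% were higher and 7.1% lower in bound RNA, and 22.5% rose and 13% fell late, and several of the counts by role are near these shares. Of 6 RNA-binding or RNA-processing genes, 3 were higher and 0 lower in bound RNA, with a median log2 ratio of 1.01 and 1 ratio below 0. The 3 higher genes were ZNF207 (ENSDARG00000015538.9), znf638 and znf318, the last a nuclear factor of immunoglobulin splicing in mice. The other ZNF207 gene on the list was not called. Of 28 regulators of transcription and chromatin, 0 were higher and 5 lower, with a median of −0.41. The 5 were ZNF143 (ENSDARG00000041581.8) at −1.46, ZNF592 at −1.39, ZNF532 at −1.30, ZNF711 at −1.04 and ZNF335 at −0.97. Human ZNF711 acts with a histone demethylase and ZNF335 with a histone methyltransferase complex. In unfractionated RNA 4 of these 28 rose late and 7 fell. Of 18 developmental factors 0 were higher and 2 lower on polysomes, ZNF503 and ZNF385C, at a median of −0.35, and 2 rose and 1 fell late.

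The ribosome list held 3 genes. ZNF622, whose yeast counterpart matures the large ribosomal subunit in the cytoplasm, gained polysome association early, with log2 ratios of −1.30, −1.10, −0.49 and 0.39 (slope 0.57 ± 0.12 SE, adjusted p = 0.017). ZNF598, the ligase that marks collided ribosomes in human cells, had a bound over unbound log2 ratio of −0.74 ± 0.25 (SE), adjusted p = 0.063. znf593, a large-subunit assembly factor, fell late in unfractionated RNA (log2 difference −0.83 ± 0.23 SE, adjusted p = 0.026).

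In level, the largest maternal supply was that of znf1035, with a mean of 42862 normalized counts in early unfractionated RNA, followed by ZNF281 (ENSDARG00000035910.6), ZNF292, znf865, znf1007, ZNF609 (ENSDARG00000103388.1), ZNF106 and znf280d, the last at 12216. Levels per transcript length could be given for members whose gene value matched 1 transcript. Among these, 25 maternal genes at 970 and above had a median of 10.3 TPM (transcript abundance per length and depth) early, and 41 below 970 had a median of 27.1 TPM. The highest were znf1035 at 165 TPM and ZNF281 (ENSDARG00000035910.6) at 158 TPM. None of the 8 most abundant genes differed between bound and unbound RNA at the threshold.

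Other zinc finger families are given for their counts beside the znf genes. Over all genes 8.46% were higher and 7.1% lower on polysomes, and 22.5% rose and 13% fell late. Many of the small counts are near these shares. On polysomes, 0 of 21 klf genes were higher and 2 lower, and 1 of 42 zbtb genes was higher and 2 lower. Of 17 prdm genes 1 was higher and 3 lower, of 11 sp genes 2 and 0, and of 7 zic genes 0 and 1. None of 4 gli genes was called, and 1 of 5 zfp genes was lower. Median log2 ratios of bound over unbound were −0.80 for zfp, −0.67 for zic, −0.19 for gli, −0.17 for zbtb and −0.09 for sp genes. They were 0.03 for klf, 0.17 for prdm and 0.32 for snai and sall genes, against −0.46 for znf genes. In unfractionated RNA, 7 of 10 snai and sall genes rose late and 0 fell, as did 7 of 21 klf genes with 4 falling. The 23 genes on a list of silencing cofactors that work with zinc finger repressors had a median above 0. Of these 10 were higher and 1 lower on polysomes, with a median log2 ratio of 0.78.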

How the data were processed

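Per the submitters' processing notes, the tools were Salmon 0.6.0, DESeq2, STAR 2.4.2a, GSNAP, Cufflinks 2.2.1, cutadapt 1.9.1 and bcl2fastq 2.16.10, with GRCz10 as the build and no role or order given. The gene table deposited by the authors holds a signal that behaves as estimated counts divided by 1 factor per library, called normalized counts here. The transcript files deposited by the authors hold expected counts and TPM, per the file headers. They gave depths, TPM levels and the 119 members whose gene values match 1 transcript, whose counts were rounded for edgeR. Symbols matched 22547 of 27015 genes.

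Differences were tested with limma 3.58.1 in R 4.3.3 with a trended prior variance, taking log2 after a pseudocount of 1 was added, which understates the change of low genes. Genes were kept if they reached 10 normalized counts in 2 or more of the libraries fitted. Adjusted p-values (Benjamini-Hochberg, over every gene tested) were called under 0.05. The 4 fits set bound against unbound over 12 libraries with the stage as a block (5 residual degrees of freedom), late against early over 6 unfractionated libraries (4), the late against the early bound over unbound ratio (4), and its slope over 8 early libraries (2). They were also run on simulated data with added changes but no other difference between stages. That run does not measure the error rates of these unreplicated fits. Alternatives changed the pseudocount, filter, scaling, block and tool (edgeR 4.0.16) or left out a stage. Members, classes and gene lists were chosen with earlier results of these data known. Named genes were the 8 most abundant of each class, the 5 largest called changes per fit and direction, role list members and genes at the class limits. A few others, such as znf1063, znf1059, znf1136 and znf185, were named after their values were seen.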

Additional observations from a re-analysis of the deposited data

Results flagged for a closer look

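In 7 znf genes the bound over unbound ratio at the late stages differed from that at the early stages by a test of the difference itself (limma, late minus early). The log2 changes were −2.63 for ZNF367, −2.34 for znf346, −2.34 for ZNF207 (ENSDARG00000015538.9), −2.17 for ZNF706, −1.85 for ZNF395 (ENSDARG00000024195.10), −1.42 for ZNF217 and 1.62 for ZNF330. Of these, ZNF217 had whole reads in all 18 libraries and the other 6 had not. Among the 261 znf genes tested, 1 (0.38%) rose and 6 (2.30%) fell, against 2.36% and 5.39% of all genes tested. Over all settings tried, 0 of the 7 calls were kept throughout.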

How the results depend on the processing

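In the counts of znf genes lower and higher on polysomes, 34 and 7 were reported. Library totals gave 106 and 4, control entries 178 and 0, median centring 17 and 15, and no stage block 8 and 5. For all 24893 genes tested the counts were 1768 lower and 2106 higher as reported. They were 6031 and 1119 with library totals, 12588 and 161 with control entries, 949 and 3268 with median centring, and 395 and 1440 without the block. In the znf genes, edgeR on the 119 genes that match 1 transcript gave 9 and 4. On the same 119 genes limma, a setting added after seeing the data, gave 13 and 2. Leaving out a stage gave 16 to 50 lower and 3 to 11 higher. For the late change in unfractionated RNA (83 rose, 25 fell), median centring gave 53 falls, where falls among all genes went from 3120 to 6589. In the znf genes, edgeR on the 119 genes gave 35 rises and 8 falls, and limma on them 38 and 11. Leaving out a library gave 35 to 83 rises and 11 to 43 falls. The lowest count of rises came without 5.3 hpf and the highest count of falls without 3.5 hpf. For the change of the ratio (1 rose, 6 fell), rises numbered 4 with TMM factors and library totals, 3 with median centring, a pseudocount of 10 or a minimum of 50, 2 with edgeR and 0 with control entries. Falls numbered 0 with control entries, edgeR and limma on the 119 genes. Of the genes called as reported, only ZNF217 was among the 119, so the joined fits could not call the others. Leaving out a stage gave 0 to 3 rises and 0 to 6 falls. For the early slope (15 rose, 6 fell), control entries gave 1 and 1, edgeR 7 and 2, and limma on the matched genes 6 and 2. Leaving out a stage gave 1 to 25 rises and 1 to 11 falls. The joined fits hold fewer genes and the reduced fits fewer libraries, and otherwise the cause was not tested.

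Maternal znf medians of the log2 ratio from the egg to 5.3 hpf were −1.28, −1.15, −1.35, −1.14, −0.88 and −0.62 with library totals, and −2.26, −2.98, −2.66, −1.77, −2.05 and −0.094 with control entries. Median centring gave −0.39, −0.43, −0.30, −0.020 and 0.17 from the 1-cell stage on, and TMM factors −0.72 at the 128-cell stage and 0.020 at 5.3 hpf. Newly expressed medians at 5.3 hpf were −0.39 with library totals, 0.14 with control entries, 0.40 with median centring and 0.25 with TMM factors. At 3.5 hpf they were −1.25, −2.43 and −0.40 with the first 3 of these scalings, and −0.42 with class limits of 20 and 100. Among the genes followed under each setting, which left out znf185, control entries reversed the log2 ratio of ZNF706 to −0.0019 and of znf318 to −0.30. They were not used for unfractionated RNA, where they held 5 to 59 reads per library. Over all settings, 23 of 41 named genes kept their late change, 1 of 21 its polysome call, 0 of 7 the change of the ratio and 1 of 15 the early slope. The comparison of fractions pairs each bound library with the unbound one of its stage, and no replicate numbers pair libraries further. Depth limits the genes with few reads, such as the newly expressed ones under 100 normalized counts.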
